A study of Homo sapiens with 12 samples.

Results

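Mitochondrial ribosomal protein genes were followed in BT549, a breast cancer line of the triple-negative kind, after knockdown of c-Jun and exposure to TNFα (tumour necrosis factor alpha), a cytokine of inflammation. They were taken as all protein-coding genes whose symbol is MRPL or MRPS followed by a digit, which leaves out 1 pseudogene. The RefSeq gene table lists 77 of them, 49 MRPL and 28 MRPS, on 21 chromosomes. On the arrays 71 had a probe set of their own, 48 MRPL and 23 MRPS, among 17958 genes measured. The other 6 (MRPL57, MRPS6, MRPS12, MRPS18A, MRPS18C and MRPS28) lay on probe sets that carry several symbols and were left out of every count. Where a gene had more than 1 probe set, the one brightest on average over the 12 arrays stood for it.

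Each of the 4 groups holds 3 arrays hybridised with total RNA of this 1 cell line. The groups are siRNAs against c-Jun, given as a pool for 72 hours and followed by TNFα for 6 hours, the same siRNA pool followed by vehicle, a control siRNA followed by TNFα, and the control siRNA followed by vehicle. All 4 groups were transfected, so no untransfected cells were compared. No label says whether replicates were grown as separate cultures, so p-values measure only the spread between these samples, which may be technical. In bulk RNA, fewer cells of a kind and less RNA per cell cannot be told apart.

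The mitochondrial ribosome makes the few proteins encoded by mitochondrial DNA, all of them subunits of the respiratory chain and ATP synthase. Its large and small subunits are built around mitochondrial rRNAs, but every one of its proteins is encoded in the nucleus, translated in the cytosol and imported. Some of these proteins have a counterpart in the bacterial ribosome and others were acquired by mitochondria. c-Jun, encoded by JUN, is one of the proteins that make up AP-1, a transcription factor activated by TNFα, and the study asks how far the TNFα response depends on it.

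Values are log2 expression per probe set. JUN averaged 10.36 ± 0.032 with c-Jun siRNA and TNFα, against 11.07 ± 0.041 with control siRNA and TNFα, and 9.83 ± 0.021 with c-Jun siRNA and vehicle, against 10.35 ± 0.0052 with control siRNA and vehicle (SD, n = 3 each). With c-Jun siRNA it fell by 38.9% under TNFα and fell by 30.5% under vehicle. Of the cell line's marker genes, VIM, CDH2, FN1 and ZEB1 lay above the array median on 12 of 12 arrays and ESR1, PGR, CDH1 and EPCAM on 0, as did the leukocyte and endothelial markers measured. ERBB2 lay above it on 12. Array medians over all probe sets lay between 5.62 and 5.68.

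The members' means over the 12 arrays ran from 6.39 to 12.04, and 1 member, MRPS9, lay below the median gene on every array. In no comparison did a member change by 1 log2 unit or more. The median absolute log2 fold change of the members was 0.07 for TNFα with control siRNA, beside 0.102 for all genes, and 0.072 for c-Jun siRNA with vehicle, beside 0.089. Changes of this size stand against a median standard error of 0.046 for a member. A total of 35 members passed the test in at least 1 of the 4 pairwise comparisons (49.3%, beside 51.9% of all genes) and 36 in none. Only MRPS24 and MRPS34 passed in all 4 (2.82%, beside 9.92% of all genes), and MRPL10, MRPL34, MRPL43 and MRPL48 passed in 3.

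Promoters of the members were compared with those of all measured genes. RefSeq's promoter windows (GRCh38.p14), from 250 bases before the start to 50 after it, were held for 64 of the 71 members and for 13864 measured genes in all, and the first start listed for a gene was used. The letters AAGATGGCG, which YY1 binds, were found in 12 members (18.8%), beside 2.84% of all windows. In 9 of these members (14.1%, beside 1.83% of all windows) they lay after the start and on the gene's strand, a position chosen after the matches were seen. Of these 9 members 6 passed in at least 1 pairwise comparison, as did 49.3% of the members and 51.9% of all genes. They differed in comparison and direction, and a link between the letters and the changes was not tested. Of the 6, 5, all but MRPL22, are shown over the stretch with these letters in capitals. These are MRPS24 at chr7:43869477-43869506 (minus strand), MRPL50 at chr9:101398574-101398603 (minus), MRPS18B at chr6:30617855-30617884 (plus), MRPS10 at chr6:42217831-42217860 (minus) and MRPS30 at chr5:44808952-44808981 (plus).
MRPS24: cttggcccAAGATGGCGgcctccgtgtgca
MRPL50: tctcatcgAAGATGGCGgcgcgatctgtgt
MRPS18B: cgtacgtcAAGATGGCGgcgtctgtattaa
MRPS10: ggaccggcAAGATGGCGgcgcggacagcgt
MRPS30: cgcgggcaAAGATGGCGgcggccaggtgtt
The 5 sequences were chosen for holding these 9 letters, so that they share them was fixed by the choice. The base that follows is the same in all 5, and it was not compared with other windows. The match is a description of these windows and no measure of YY1 binding.

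Other motifs were searched on both strands. The ETS letters CCGGAAGT, which the GABP factor (also called NRF-2) binds, were found in 11 members (17.2%), beside 6.38% of all windows. They were found in 9 of 41 MRPL windows (22.0%) and 2 of 23 MRPS windows (8.7%). The NRF1 letters GCGCATGCG were in 2 members (3.12%), beside 2.78%, the E-box CACGTG in 5 (7.81%), beside 8.89%, and the SP letters GGGCGG in 39 (60.9%), beside 60.0%. The AP-1 letters TGANTCA, the site of c-Jun with its FOS partners, were in 1 member, MRPS35 (1.56%), beside 5.58%, and the CRE letters TGACGTCA were in 0, beside 2.67%. The NF-kB letters GGGANTTTC, for the main transcription factor of the TNFα pathway, were in MRPL14, MRPL19 and MRPL30 (4.69%), beside 1.26%. Motifs may overlap each other; in MRPL17 the NRF1 letters overlap themselves on the opposite strand.

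**Figure D1:**
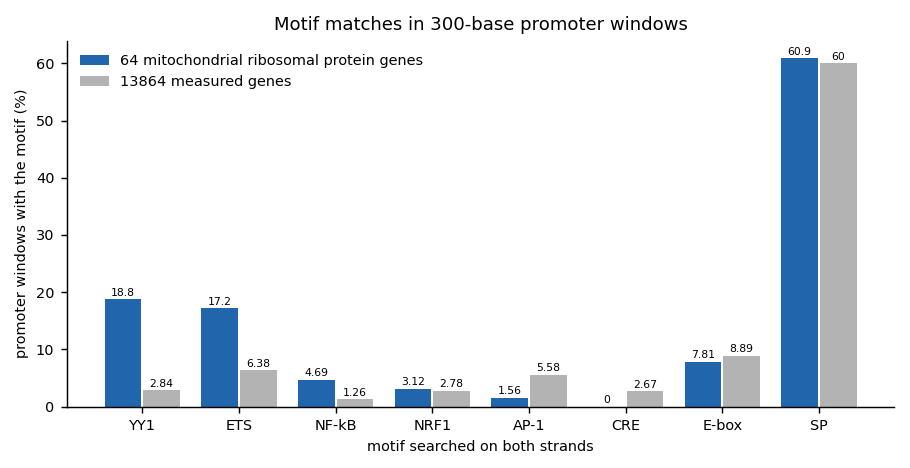
Share of promoter windows (vertical axis, %) that hold each motif on either strand, for 64 mitochondrial ribosomal protein genes (blue) and all 13864 measured genes with a window (grey). The YY1 letters stand at 18.8% of members and 2.84% of all genes and the ETS letters at 17.2% and 6.38%, while the SP letters are at 60.9% and 60.0%.

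Upstream windows of 4 members whose changes are described here are shown as examples, with such letters again in capitals. Other described members also held upstream matches, among them MRPL3 and MRPL47 (ETS), MRPL22 (NRF1) and MRPL19 (NF-kB). With TNFα and control siRNA MRPL14 rose, while MRPL19 (-0.08, limma adjusted p = 0.443) and MRPL30 (0.06, limma adjusted p = 0.449) did not pass. A link between letters and changes was not tested. MRPS34 (chr16:1773135-1773174, minus strand) and MRPL27 (chr17:50373185-50373244, minus) hold the ETS letters, MRPL17 (chr11:6683371-6683430, minus) the NRF1 letters and MRPL14 (chr6:44127339-44127388, minus) the NF-kB letters.
MRPS34: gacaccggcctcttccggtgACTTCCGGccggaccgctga
MRPL27: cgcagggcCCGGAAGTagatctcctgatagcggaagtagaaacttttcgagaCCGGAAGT
MRPL17: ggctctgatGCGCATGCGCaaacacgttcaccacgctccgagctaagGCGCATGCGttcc
MRPL14: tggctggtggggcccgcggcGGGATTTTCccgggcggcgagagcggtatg
MRPS34 carries its match on the opposite strand and MRPL27 carries 2. No promoter window was held for MRPL2, MRPL10, MRPL13, MRPL15, MRPL21, MRPL23 and MRPL35.

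TNFα was first set against vehicle in cells with the control siRNA. MRPS24, MRPL39 and MRPL14 rose and MRPS34, MRPS26, MRPL35 and MRPL43 fell, and the changes of the other members that passed were smaller. In all 7 members rose and 13 fell, and 51 did not pass. As background, 13.8% of all genes rose and 21.9% fell, so the members' 9.86% and 18.3% were below both shares. The members' median log2 fold change was -0.027, beside -0.023 for all genes. The test was limma's moderated test with Benjamini-Hochberg adjustment over 17958 genes and a threshold of 0.05.

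MRPS24 encodes a small subunit protein with a bacterial counterpart, at the entry of the mRNA channel. Its log2 expression was 11.79, 11.67 and 11.76 on the TNFα arrays, against 11.14, 11.14 and 11.16 on the vehicle arrays. Every TNFα array lay above every vehicle array. The log2 fold change was 0.59 ± 0.032 (SE, limma adjusted p = 3.63e-11), which is a rise of 50.2%. MRPS24 overlaps the read-through gene URGCP-MRPS24 in RefSeq, and the probe set cannot tell their transcripts apart.

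In the large subunit, MRPL39, a protein that mitochondria acquired, had values of 9.69, 9.76 and 9.85 with TNFα, against 9.51, 9.50 and 9.44 with vehicle. MRPL14, which has a bacterial counterpart, had 8.70, 8.66 and 8.67 with TNFα, against 8.45, 8.40 and 8.40 with vehicle. The groups did not overlap for either gene. MRPL39 rose by 0.28 ± 0.046 and MRPL14 by 0.26 ± 0.054 on the log2 scale (limma adjusted p = 8.99e-05 and 0.000706). MRPL14 overlaps TMEM63B in RefSeq. MRPL32, MRPL44, MRPL27 and MRPL50 also rose, by 0.11 to 0.20.

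MRPS34, a mitochondria-specific protein of the small subunit, had the largest fall. Its values were 9.17, 9.20 and 9.19 with TNFα, against 9.56, 9.53 and 9.51 with vehicle, with no overlap. It fell by 0.35 on the log2 scale (SE 0.041, limma adjusted p = 1.46e-06). MRPS34 overlaps EME2 in RefSeq.

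MRPS26, another mitochondria-specific small subunit protein, had 9.01, 8.94 and 8.91 with TNFα, against 9.22, 9.25 and 9.18 with vehicle. MRPL43, a mitochondria-specific large subunit protein that overlaps SEMA4G in RefSeq, had 9.10, 9.09 and 9.17 with TNFα, against 9.38, 9.35 and 9.28 with vehicle. MRPL35, which has a bacterial counterpart, had 8.40, 8.61 and 8.60 with TNFα, against 8.66, 8.87 and 8.74 with vehicle. All TNFα arrays lay below all vehicle arrays in each of these genes, most narrowly in MRPL35. MRPS26 fell by 0.26 ± 0.041, MRPL43 by 0.22 ± 0.039 and MRPL35 by 0.22 ± 0.062 (limma adjusted p = 4.81e-05, 0.000208 and 0.00807).

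The remaining falls were of 0.12 to 0.22, in MRPL10, MRPL2, MRPL55, MRPL48, MRPL49, MRPS18B, MRPL45, MRPL34 and MRPS27. MRPL45 is the protein that holds the ribosome near the inner membrane, and it fell by 0.14 ± 0.031 (limma adjusted p = 0.00115). MRPL10 anchors the stalk of the large subunit, with values of 7.88, 7.98 and 7.82 with TNFα, against 8.27, 8.13 and 7.93 with vehicle. Its groups overlapped between 7.93 and 7.98, and it passed narrowly (limma adjusted p = 0.0361). Its partners in the stalk region passed in no comparison. MRPL12, which also binds the mitochondrial RNA polymerase, had 9.68, 9.62 and 9.73 with TNFα, against 9.79, 9.68 and 9.77 with vehicle (log2 fold change -0.07, limma adjusted p = 0.387). MRPL11 had 9.06, 9.42 and 9.29 with TNFα, against 9.15, 9.26 and 9.18 with vehicle (0.06, limma adjusted p = 0.564). Both pairs of groups overlapped. Without control siRNA TNFα replicate 2, 8 members fell rather than 13. Array names carry a position code, read here as a column. Within column 7, which held 2 arrays of each group, 6 rose and 9 fell in a comparison chosen after seeing the data.

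**Figure D2:**
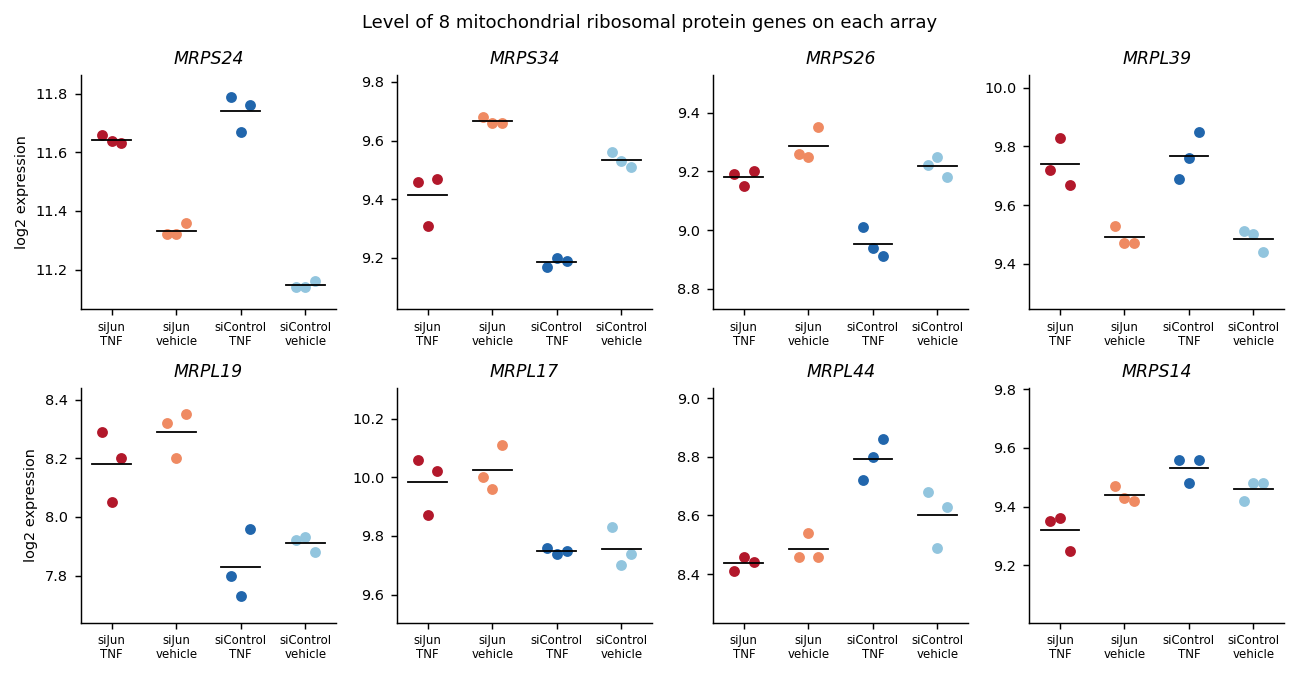
Log2 expression (vertical axes, each spanning 0.8 units) of 8 mitochondrial ribosomal protein genes on each of the 12 arrays (points) with the group mean (line), by siRNA against c-Jun (siJun) or control siRNA (siControl) and by TNFα or vehicle. MRPS24 is higher with TNFα under both siRNAs, by 0.31 with c-Jun siRNA and 0.59 with control siRNA, and MRPL19 is higher with c-Jun siRNA under both treatments.

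TNFα was then set against vehicle in cells with c-Jun siRNA, on 6 other arrays. MRPS24, MRPL39, MRPL14 and MRPL32 rose again, and MRPL35 and MRPS34 had the largest falls. In all 4 members rose and 10 fell, beside 11.3% and 18.3% of all genes. The members' shares were 5.63% and 14.1%, again below both, and their median was -0.047, beside -0.016 for all genes.

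MRPS24 had 11.66, 11.64 and 11.63 with TNFα, against 11.32, 11.32 and 11.36 with vehicle. The groups did not overlap, and the rise of 0.31 ± 0.032 (limma adjusted p = 3.08e-07) was 1.24-fold. MRPL39 had 9.72, 9.83 and 9.67 with TNFα, against 9.53, 9.47 and 9.47 with vehicle. MRPL14 had 8.53, 8.77 and 8.67 with TNFα, against 8.40, 8.51 and 8.41 with vehicle. Both had every TNFα array above every vehicle array, and the rises were 0.25 ± 0.046 and 0.21 ± 0.054 (limma adjusted p = 0.000336 and 0.00473).

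MRPL32, a large subunit protein whose maturation by an inner-membrane protease is known from yeast and mouse, had 8.33, 8.03 and 8.14 with TNFα, against 7.95, 7.97 and 7.99 with vehicle. Its groups did not overlap, and it rose by 0.20 ± 0.066 (limma adjusted p = 0.0291).

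Of the falls, MRPL35 had 8.50, 8.56 and 8.57 with TNFα, against 8.78, 8.79 and 8.91 with vehicle. MRPS34 had 9.46, 9.31 and 9.47 with TNFα, against 9.68, 9.66 and 9.66 with vehicle. Both were separate on all arrays, and they fell by 0.28 ± 0.062 and 0.25 ± 0.041 (limma adjusted p = 0.00161 and 8.67e-05). MRPL3, a core protein of the large subunit with a bacterial counterpart, had 10.34, 10.34 and 10.31 with TNFα, against 10.51, 10.56 and 10.40 with vehicle. MRPL22, which lines the exit tunnel, had 7.80, 7.70 and 7.73 with TNFα, against 7.90, 7.91 and 7.90 with vehicle. Both fell by 0.16 with no overlap (limma adjusted p = 0.00244 for MRPL3 and 0.0431 for MRPL22). The MRPL22 call was kept in 11 of 26 alternatives.

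The other 6 falls, in MRPL55, MRPL45, MRPL28, MRPL48, MRPS14 and MRPL43, were of 0.11 to 0.16. The number of falls depended on scaling: with each array centred on its median, 5 members rose and 4 fell, and the share of falls among all called genes was 45.6% rather than 61.7%. The c-Jun siRNA vehicle arrays all came from 1 position column and the TNFα arrays from others. With the column as a block, 3 members rose (4.23%, beside 5.85% of all genes) and 3 fell (4.23%, beside 7.38%). With the c-Jun siRNA TNFα arrays 1 and 3 averaged, since the third's name reads as a second run of the first, 3 rose and 6 fell.

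The TNFα effects under the 2 siRNAs were measured on separate arrays. Across the 71 members Pearson's r was 0.81 and Spearman's rho 0.67, beside r of 0.90 and rho of 0.69 over all genes. These values describe this list, and both effects share the same normalisation. All 4 members that rose with c-Jun siRNA were among the 7 that rose with control siRNA, which is 57.1% of the 7. Over all genes the shared rises were 78.9% of those with c-Jun siRNA and 64.6% of those with control siRNA. Of the falls, 6 were shared (MRPL35, MRPL43, MRPL45, MRPL48, MRPL55 and MRPS34), which is 60.0% of those with c-Jun siRNA and 46.2% of those with control siRNA. Over all genes those shares were 79.7% and 66.6%. With the position column as a block, the calls of MRPL14, MRPL32, MRPL35, MRPL43, MRPL48 and MRPL55 with c-Jun siRNA were lost. With control siRNA that of MRPL32 was lost. No member passed in opposite directions, beside 39 of the 17958 genes.

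The difference between the TNFα effects was tested as an interaction, with c-Jun siRNA minus with control siRNA. MRPS24 was the member that passed, with a value of -0.28 ± 0.045 (limma adjusted p = 0.000672), so its rise was smaller with c-Jun siRNA. No member passed with a positive value. Among all genes, 1.88% passed with a positive value and 3.59% with a negative one. The share of negative values among the calls was 54.9% with arrays centred on their medians and 65.6% without. MRPS24 passed in all 25 alternatives run for the interaction, with values of -0.31 to -0.25.

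The next members by p did not pass. MRPS14, a small subunit protein with a bacterial counterpart, had an interaction of -0.19 ± 0.057 (limma adjusted p = 0.0576), and MRPL44, a mitochondria-specific large subunit protein with a fold like that of ribonuclease III, had -0.24 ± 0.074 (limma adjusted p = 0.0664). MRPS26 had 0.16 ± 0.058 (limma adjusted p = 0.16). MRPS14 had 9.35, 9.36 and 9.25 with c-Jun siRNA and TNFα, against 9.47, 9.43 and 9.42 with c-Jun siRNA and vehicle, and fell. With control siRNA it had 9.56, 9.48 and 9.56 with TNFα, against 9.42, 9.48 and 9.48 with vehicle, where the lowest TNFα array and the highest vehicle array both round to 9.48, and did not pass (0.07 ± 0.04, limma adjusted p = 0.181). Leaving out 1 array gave at most 2 members passing; control siRNA vehicle replicate 1, either of control siRNA TNFα replicates 1 and 2 or c-Jun siRNA TNFα replicate 2 gave that number. The array weights and the removal of the dimmest 30% of genes gave 3.

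**Figure D3:**
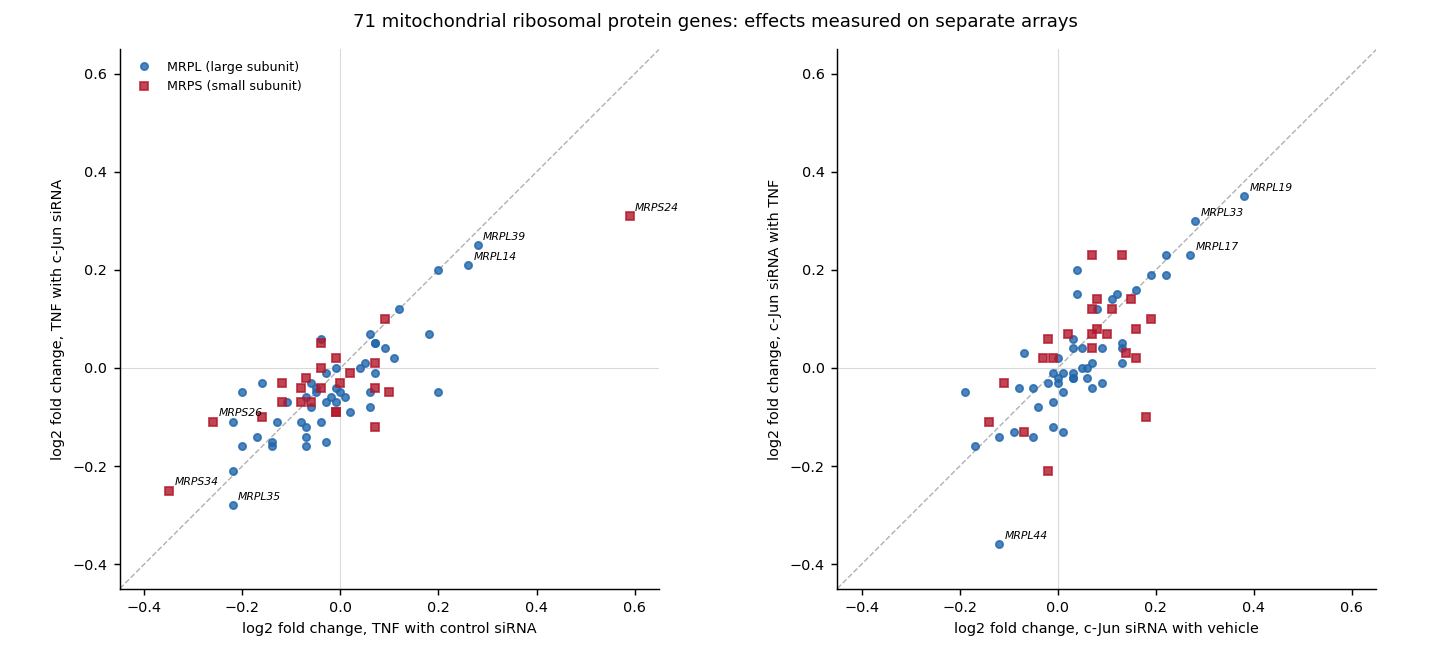
Log2 fold change of each of the 71 members under TNFα with c-Jun siRNA (left, vertical axis) against TNFα with control siRNA (horizontal axis), and under c-Jun siRNA with TNFα (right, vertical axis) against c-Jun siRNA with vehicle (horizontal axis). Circles are MRPL and squares MRPS genes, and the dashed line marks equal effects. MRPS24 lies below the line on the left, at 0.31 and 0.59.

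c-Jun siRNA was set against control siRNA in vehicle-treated cells. MRPL19, MRPL33, MRPL17, MRPL58 and MRPL10 had the largest rises, and MRPL49, MRPL47 and MRPS21 fell. In all 14 members rose and 3 fell, which is 19.7% and 4.23%, beside 14.4% and 14.5% of all genes. The members' median was 0.047, beside -0.007 for all genes, and 48 of the 71 values were above 0.

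MRPL19, a large subunit protein with a bacterial counterpart, had 8.32, 8.20 and 8.35 with c-Jun siRNA, against 7.92, 7.93 and 7.88 with control siRNA. MRPL17, likewise with a bacterial counterpart and with the NRF1 letters shown above, had 10.00, 9.96 and 10.11 with c-Jun siRNA, against 9.83, 9.70 and 9.74 with control siRNA. MRPL33, a small large-subunit protein, had 7.54, 7.43 and 7.44 with c-Jun siRNA, against 7.18, 7.08 and 7.30 with control siRNA. The groups were separate for all 3 genes. The rises were 0.38 ± 0.067 for MRPL19, 0.27 ± 0.049 for MRPL17 and 0.28 ± 0.082 for MRPL33 (limma adjusted p = 0.000225, 0.000333 and 0.014).

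MRPL58, a peptidyl-tRNA hydrolase that frees stalled ribosomes and is also built into the large subunit, had 9.84, 9.77 and 9.89 with c-Jun siRNA, against 9.65, 9.56 and 9.62 with control siRNA. It rose by 0.22 ± 0.046 with no overlap (limma adjusted p = 0.00107). MRPL10 rose by 0.22 ± 0.077 (limma adjusted p = 0.041), with 8.32, 8.44 and 8.24 against 8.27, 8.13 and 7.93 with control siRNA, and its groups overlapped. MRPS24 rose by 0.18 ± 0.032 (limma adjusted p = 0.000229). The other rises, of 0.08 to 0.16, were in MRPS10, MRPS11, MRPS5, MRPS34, MRPL3, MRPL28, MRPL34 and MRPS15, so that 6 of the 14 were MRPS genes.

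MRPL49, a mitochondria-specific large subunit protein that overlaps SYVN1 in RefSeq, had 10.55, 10.63 and 10.56 with c-Jun siRNA, against 10.70, 10.78 and 10.81 with control siRNA. MRPS21, a small subunit protein, had 11.59, 11.55 and 11.56 with c-Jun siRNA, against 11.73, 11.74 and 11.67 with control siRNA. MRPL47, which overlaps ACTL6A, had 10.00, 9.90 and 10.08 with c-Jun siRNA, against 10.11, 10.12 and 10.26 with control siRNA. All c-Jun siRNA arrays lay below all control siRNA arrays in each. They fell by 0.19 ± 0.038, 0.14 ± 0.029 and 0.17 ± 0.049 (limma adjusted p = 0.000808, 0.000691 and 0.0117).

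The number of rises fell to 6 without control siRNA vehicle replicate 2 and to 8 without c-Jun siRNA vehicle replicate 2. All 3 c-Jun siRNA vehicle arrays shared a position column with only 1 of the control siRNA vehicle arrays. With the column as a block, 6 members rose (8.45%, beside 9.74% of all genes) and 2 fell (2.82%, beside 9.46%).

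Under TNFα, c-Jun siRNA was again followed by rises of MRPL19, MRPL33 and MRPL17, while MRPL44 and MRPS14 had the largest falls. In all 15 members rose and 6 fell, 21.1% and 8.45%, beside 14.1% and 14.4% of all genes. The members' median was 0.017, beside 0.001. MRPL19 had 8.29, 8.05 and 8.20 with c-Jun siRNA, against 7.80, 7.73 and 7.96 with control siRNA. MRPL33 had 7.40, 7.54 and 7.30, against 7.17, 6.94 and 7.24 with control siRNA. MRPL17 had 10.06, 9.87 and 10.02, against 9.76, 9.74 and 9.75 with control siRNA.

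None of the 3 genes had overlapping groups, and they rose by 0.35 ± 0.067, 0.30 ± 0.082 and 0.23 ± 0.049 (limma adjusted p = 0.000557, 0.01 and 0.00129). MRPS34 had 9.46, 9.31 and 9.47 with c-Jun siRNA, against 9.17, 9.20 and 9.19 with control siRNA, and MRPS26 had 9.19, 9.15 and 9.20, against 9.01, 8.94 and 8.91 with control siRNA. Both rose by 0.23 ± 0.041 without overlap (limma adjusted p = 0.000257 and 0.000329). These 2 genes had been lower with TNFα than with vehicle under control siRNA, a comparison that uses the same control siRNA TNFα arrays. Their interactions did not pass (0.10 ± 0.058 for MRPS34 and 0.16 ± 0.058 for MRPS26, limma adjusted p = 0.439 and 0.16).

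MRPL10 rose by 0.23 ± 0.077 (limma adjusted p = 0.0334), with 8.02, 8.13 and 8.21 with c-Jun siRNA, against 7.88, 7.98 and 7.82 with control siRNA and no overlap. MRPS18B, whose promoter stretch is shown above, had 9.64, 9.71 and 9.68 with c-Jun siRNA, against 9.63, 9.43 and 9.55 with control siRNA. It rose by 0.14 ± 0.049 (limma adjusted p = 0.0371), its groups close but not overlapping. MRPS30, named as a small subunit protein but found in the large subunit in structures, rose by 0.12 ± 0.044 (limma adjusted p = 0.0477), with 9.08, 9.19 and 9.08 against values between 8.94 and 9.04 with control siRNA and no overlap. The other rises, of 0.08 to 0.20, were in MRPL2, MRPL58, MRPL34, MRPL43, MRPL48, MRPS5 and MRPS15.

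MRPL44 had 8.41, 8.46 and 8.44 with c-Jun siRNA, against 8.72, 8.80 and 8.86 with control siRNA. MRPS14 had 9.35, 9.36 and 9.25, against 9.56, 9.48 and 9.56 with control siRNA. The groups were separate, and they fell by 0.36 ± 0.052 and 0.21 ± 0.04 (limma adjusted p = 2.93e-05 and 0.000438). MRPL44 did not pass under vehicle (-0.12 ± 0.052, limma adjusted p = 0.112). MRPL50, a mitochondria-specific protein, had 11.28, 11.20 and 11.29 with c-Jun siRNA, against 11.36, 11.43 and 11.42 with control siRNA, and fell by 0.14 ± 0.035 (limma adjusted p = 0.0038). MRPL47, with 10.03, 9.98 and 9.97 against 10.22, 10.10 and 10.14 with control siRNA, fell by 0.16 ± 0.049 (limma adjusted p = 0.0194). Neither had overlapping groups, and MRPS21 fell by 0.11. MRPS24 fell by 0.10 ± 0.032 (limma adjusted p = 0.0298), with 11.66, 11.64 and 11.63 against 11.79, 11.67 and 11.76 with control siRNA, groups that came close without overlapping.

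Without control siRNA TNFα replicate 2, 7 members rose rather than 15. With the position column as a block, 11 rose (15.5%, beside 13.3% of all genes) and 6 fell (8.45%, beside 13.7%). The fall of MRPS24 was kept in 17 of 26 alternatives and was lost with arrays centred on their medians and without control siRNA TNFα replicate 1.

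Across the c-Jun siRNA comparisons, which share no arrays, r over the 71 members was 0.76 and rho 0.74. Over all genes r was 0.75 and rho 0.6. MRPL10, MRPL17, MRPL19, MRPL33, MRPL34, MRPL58, MRPS5, MRPS15 and MRPS34 rose in both, 64.3% of the rises under vehicle and 60.0% of those under TNFα. Over all genes the shared rises were 67.6% and 68.9%. With the position column as a block, the calls of MRPL33, MRPL34, MRPS5, MRPS15 and MRPS34 under vehicle were lost. Under TNFα those of MRPS5 and MRPS15 were lost. MRPL47 and MRPS21 fell in both, 66.7% of the falls under vehicle and 33.3% of those under TNFα. For all genes the shared falls were 62.4% and 62.8%. MRPS24 was the 1 member that passed in opposite directions, as did 104 of the 17958 genes.

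Large and small subunit genes were compared by counts and medians. With TNFα and control siRNA, 6 of 48 MRPL genes rose (12.5%) and 9 fell (18.8%). Of 23 MRPS genes 1 rose (4.35%) and 4 fell (17.4%), beside 13.8% and 21.9% of all genes. The median of the MRPL genes minus that of the MRPS genes was 0.011. With TNFα and c-Jun siRNA, 3 MRPL genes rose (6.25%) and 8 fell (16.7%), and the MRPL and MRPS medians differed by -0.012. Among the MRPS genes 1 rose (4.35%) and 2 fell (8.7%), beside 11.3% and 18.3% of all genes. On each array the median deviation of the genes from their means over the 12 arrays was also taken, for MRPL minus MRPS genes. With c-Jun siRNA it was -0.026, -0.013 and -0.002 on the TNFα arrays, against -0.019, -0.018 and -0.031 on the vehicle arrays. With control siRNA it was 0.043, -0.001 and 0.019 on the TNFα arrays, against -0.005, 0.009 and -0.009 on the vehicle arrays. The TNFα and vehicle groups overlapped under both siRNAs.

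With c-Jun siRNA under vehicle, 8 MRPL genes rose (16.7%) and 2 fell (4.17%). Among the MRPS genes 6 rose (26.1%) and 1 fell (4.35%), beside 14.4% and 14.5% of all genes. The medians were 0.034 for MRPL and 0.071 for MRPS genes, a difference of -0.037. With the position column as a block, the rises of MRPL3, MRPL28, MRPL33, MRPL34, MRPS5, MRPS11, MRPS15 and MRPS34 were no longer called. The fall of MRPS21 was lost too. Among the MRPS rises only those of MRPS10 and MRPS24 were kept. Under TNFα, 9 MRPL genes rose (18.8%) and 3 fell (6.25%). Among the MRPS genes 6 rose (26.1%) and 3 fell (13.0%), beside 14.1% and 14.4% of all genes. The MRPL and MRPS medians were -0.005 and 0.068, a difference of -0.073. Here the block lost the rises of MRPL48, MRPS5, MRPS15 and MRPS18B. Both differences of medians were negative, in no alternative above -0.02. In the values per array given above, the c-Jun siRNA arrays lay below the control siRNA arrays under both treatments, most narrowly under TNFα, where -0.002 and -0.001 were the nearest values. Placing MRPS30 in the large subunit left medians of -0.004 and 0.065 under TNFα. No test was run on these medians, since the genes of a subunit are not replicates.

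**Figure D4:**
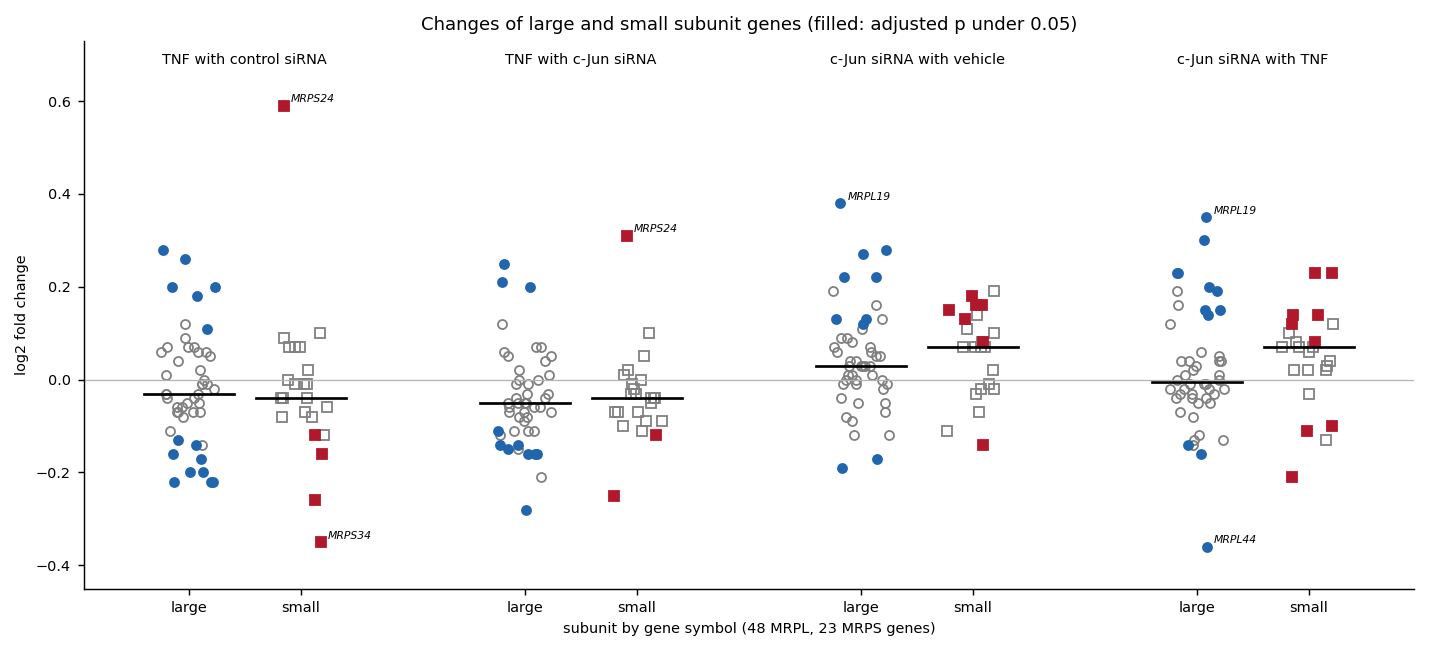
Log2 fold change (vertical axis) of each of the 48 MRPL genes (circles) and 23 MRPS genes (squares) in the 4 pairwise comparisons; filled symbols passed the test and lines mark medians. The MRPL median lies below the MRPS median in both c-Jun siRNA comparisons, at 0.034 and 0.071 with vehicle and at -0.005 and 0.068 with TNFα.

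Members were also divided by origin. Of the 42 with a bacterial counterpart, 12 rose (28.6%) and 2 fell (4.76%) with c-Jun siRNA under vehicle, with a median of 0.072. Of the 29 mitochondria-specific members, 2 rose (6.9%) and 1 fell (3.45%), with a median of 0.023. Among all genes 14.4% rose and 14.5% fell. Under TNFα the same counts were 8 and 4 of the 42 (19.0% and 9.52%) and 7 and 2 of the 29 (24.1% and 6.9%). The shares over all genes were 14.1% and 14.4%. The medians were 0.016 for the 42 and 0.02 for the 29. With the position column as a block, the 42 lost the vehicle rises of MRPL3, MRPL28, MRPL33, MRPL34, MRPS5, MRPS11 and MRPS15. They also lost the fall of MRPS21, and the 29 lost the rise of MRPS34. Under TNFα the 42 lost the rises of MRPS5 and MRPS15, and the 29 those of MRPL48 and MRPS18B. With TNFα and control siRNA, 4 of the 42 rose (9.52%) and 5 fell (11.9%). Of the 29, 3 rose (10.3%) and 8 fell (27.6%), beside 13.8% and 21.9% of all genes. With TNFα and c-Jun siRNA, 3 of the 42 rose (7.14%) and 6 fell (14.3%). Of the 29, 1 rose (3.45%) and 4 fell (13.8%), beside 11.3% and 18.3% of all genes.

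Among mitochondrial ribosomal proteins with other symbols, PTCD3 fell with TNFα under both siRNAs, by 0.12 with c-Jun siRNA and 0.20 with control siRNA. DAP3, a GTP-binding protein of the small subunit, rose by 0.16 with TNFα under control siRNA. In vehicle-treated cells it rose by 0.12 with c-Jun siRNA. CHCHD1 rose by 0.22 with c-Jun siRNA under vehicle. Of the 4 measured, 1 rose and 1 fell for TNFα with control siRNA, beside 13.8% and 21.9% of all genes. For c-Jun siRNA with vehicle 2 rose and 0 fell, beside 14.4% and 14.5%.

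The rest of the mitochondrial translation machinery was counted from fixed lists. Of 12 translation factors, 4 rose and 0 fell with c-Jun siRNA under vehicle, and 3 rose and 1 fell under TNFα. TUFM, the mitochondrial elongation factor Tu, rose by 0.29 ± 0.035 under TNFα and 0.33 ± 0.035 under vehicle (limma adjusted p = 2.56e-06 and 5.84e-07). Of 20 mitochondrial aminoacyl-tRNA synthetases, 7 rose and 0 fell under vehicle and 5 and 0 under TNFα. CARS2 and IARS2, for cysteine and isoleucine, rose in both, by 0.28 to 0.37. With TNFα and control siRNA 4 synthetases rose and 6 fell. MARS2, for methionine, rose by 0.44 ± 0.062 (limma adjusted p = 1.38e-05).

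Of 24 assembly factors and rRNA-modifying enzymes, 6 rose and 4 fell for TNFα with control siRNA. NSUN4, an rRNA methyltransferase, rose by 0.26 ± 0.035 and DDX28, a helicase of large subunit assembly, by 0.31 ± 0.06, while METTL15 fell by 0.41 ± 0.094 (limma adjusted p = 7.65e-06, 0.000436 and 0.0021). Of 66 cytosolic ribosomal proteins, 0 rose and 4 fell (6.06%) in this comparison, beside 13.8% and 21.9% of all genes. Their median was -0.018. With c-Jun siRNA under vehicle, 3 of the cytosolic ones rose (4.55%) and 6 fell (9.09%), beside 14.4% and 14.5% of all genes. Their median was -0.016, beside 0.047 for the mitochondrial ribosomal protein genes.

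Of 14 regulators of mitochondrial gene expression, 5 rose (35.7%) and 1 fell (7.14%) with TNFα under each siRNA. Among all genes 11.3% rose and 18.3% fell with c-Jun siRNA, and 13.8% and 21.9% with control siRNA. GABPB1, a subunit of the factor that binds the ETS letters, rose with TNFα by 0.42 ± 0.046 with c-Jun siRNA and by 0.82 ± 0.046 with control siRNA. Its interaction passed with a negative value (-0.40 ± 0.065, limma adjusted p = 0.000694). GABPA had 0.05 ± 0.068 with c-Jun siRNA and 0.10 ± 0.068 with control siRNA, and passed in neither (limma adjusted p = 0.657 and 0.299). GABPB2 had 0.18 ± 0.056 and 0.12 ± 0.056 (limma adjusted p = 0.0193 and 0.112). PPARGC1A, a coactivator of mitochondrial biogenesis, fell with TNFα by 1.07 ± 0.11 with c-Jun siRNA and by 0.71 ± 0.11 with control siRNA. Its signal was low, with means of 4.58 under TNFα and 5.66 under vehicle with c-Jun siRNA. With control siRNA the means were 5.3 and 6.01, while the median gene lay at 6.925 or above on every array. NRF1 had log2 fold changes of -0.03 with c-Jun siRNA and 0.00 with control siRNA, and passed in neither. YY1 had 0.11 ± 0.04 with c-Jun siRNA (limma adjusted p = 0.0433) and 0.09 ± 0.04 with control siRNA (limma adjusted p = 0.0813).

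In the list for mitochondrial DNA expression and maintenance, 5 of 16 genes rose and 3 fell for TNFα with control siRNA, against 4 and 0 with c-Jun siRNA. PNPT1, a mitochondrial ribonuclease known as interferon-inducible, rose by 0.47 ± 0.05 with c-Jun siRNA and by 1.04 ± 0.05 with control siRNA. TWNK, the mitochondrial DNA helicase, rose by 0.21 ± 0.043 and by 0.53 ± 0.043. Both interactions passed with negative values (limma adjusted p = 3.72e-05 for PNPT1 and 0.00252 for TWNK). TFAM, which packages mitochondrial DNA, rose with c-Jun siRNA by 0.31 ± 0.049 under TNFα and by 0.22 ± 0.049 under vehicle.

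Of 20 protein import genes, 3 rose and 5 fell for TNFα with control siRNA. TOMM20, an outer-membrane receptor of import, fell in all 4 pairwise comparisons, by 0.23 to 0.30. Of 12 mitochondrial chaperones and proteases, 1 rose and 3 fell for TNFα with control siRNA. With c-Jun siRNA, 3 rose and 0 fell under TNFα, and 4 rose and 0 fell under vehicle, among them TRAP1, a mitochondrial HSP90 protein, with 0.24 ± 0.032 in each.

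The 2 probe sets of MRPL20 held identical values, as did the 3 of MRPS18B. In cells with c-Jun siRNA, MRPL20 had 10.66, 10.68 and 10.67 under TNFα, against 10.67, 10.60 and 10.63 under vehicle. In cells with control siRNA it had 10.77, 10.60 and 10.71 under TNFα, against 10.59, 10.58 and 10.65 under vehicle. It passed in no comparison, and its groups overlapped. The 2 probe sets of MRPL36 differed in sign for TNFα with control siRNA, at 0.04 ± 0.053 and -0.04 ± 0.042, and neither passed. The brighter one, used for the gene, had 9.97, 10.06 and 9.97 with c-Jun siRNA under TNFα, against 10.16, 10.09 and 10.08 under vehicle, and 10.05, 9.96 and 10.02 with control siRNA under TNFα, against 10.10, 9.98 and 10.06 under vehicle. MRPL36 passed in no comparison. MRPS18B, which passed for TNFα with control siRNA among genes (limma adjusted p = 0.015), had an adjusted p of 0.0522 when all 33297 probe sets were fitted. In RefSeq 28 of the 71 members overlap another gene, and their probe sets may read both.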

How the data were processed

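RNA from BT549 cells was hybridised to 12 arrays in 4 groups of 3, taken with their replicate numbers from the labels. The deposited values are used as log2 expression per probe set, with the base inferred from their range of 2.27 to 14.0, and were not normalised further. Per the submitters' processing notes, the authors' tools include Affymetrix Expression Console 1.1 and PLIER, with roles not given. The genome build of the probe annotation is not given in the sources used here. The number of arrays limits the precision.

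Of 33297 probe sets, 19181 had 1 symbol, 2055 several and 12061 none here, and 19143 of the first were matched to the gene table by Entrez identifier. The probe set with the highest 12-array mean stood for a gene, which gave 17958 genes. limma 3.58.1 (R 4.3.3) fitted group means over the 12 arrays together (residual degrees of freedom 8, prior 9.29) and let the variance follow the mean. Tests were two-sided, with Benjamini-Hochberg adjustment over all genes and a threshold of 0.05. The fit was tested on simulated data. Errors are standard errors of the fit, or SDs over 3 arrays. Python 3.11.15 with pandas 2.3.3 and matplotlib 3.10.9 handled tables and plots.

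The members, the 9 gene lists (188 of 208 entries measured) and the tests were chosen with earlier results of these data known. Members shown in every array were the 4 largest called rises and falls of each comparison, the interaction's 4 smallest p, members with several probe sets, and MRPS30, MRPL10, MRPL11 and MRPL12. From each list up to 4 called genes were eligible, with JUN. YY1, NRF1 and GABPA of the regulator list were also given because their motifs were searched, and that choice came after their values were seen. Alternatives were a floor of 4 on log2 values, quantile normalisation, centring, a filter on the dimmest 30% of genes, averaging of probe sets per gene, other variance models, array weights, fewer groups in the fit, a threshold of 0.01, replicate or position blocks and each array left out. Replicate numbers did not pair samples: over 18 same-numbered pairs, correlations of deviations ran from -0.059 to 0.088.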

Additional observations from a re-analysis of the deposited data

Results flagged for a closer look

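MRPS24 stood out because the TNFα effect differed between siRNAs by the interaction test, with -0.28 on the log2 scale. For MRPS14 every TNFα array lay below every vehicle array with c-Jun siRNA and above every one with control siRNA, there by less than the rounding to 2 decimals shows. The opposite separation itself was not tested; the interaction was -0.19 and missed the threshold (limma adjusted p = 0.0576).

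Probe sets with several symbols lay outside the counts above, and which gene they read was not tested. They were fitted among all 33297 probe sets. That of MRPS6 and SLC5A3 fell by 0.46 with TNFα under both siRNAs, and with c-Jun siRNA it had -0.35 under TNFα and -0.36 under vehicle. That of MRPS7 and MIF4GD fell with TNFα (-0.29 with c-Jun siRNA and -0.31 with control siRNA), and rose with c-Jun siRNA by 0.22 under TNFα and 0.20 under vehicle. That of MRPS18C and ABRAXAS1 fell with TNFα under c-Jun siRNA (-0.25) and with c-Jun siRNA under TNFα (-0.49).

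With c-Jun siRNA, a probe set of MRPL57 and SKA3 rose by 0.27 under TNFα and 0.37 under vehicle, that of MRPS12 and SARS2 by 0.17 and 0.19, and that of MRPS28 and TPD52 by 0.31 and 0.48. That of MRPS18A and RSPH9 fell (-0.17 under TNFα and -0.18 under vehicle). A probe set of MRPS22, PRR23A and PRR23B fell by 0.31 with TNFα under control siRNA.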

How the results depend on the processing

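The 140 results of single genes cover 27 members and JUN. Those that passed changed sign in none of 14 other settings, the 12 fits without 1 array or the comparison within a position column. Sign changes of results that did not pass were not counted. The fit of only the compared groups gave no interaction. Of 3640 gene and setting pairs 161 lost and 39 gained the threshold. The number of falls for TNFα with control siRNA was 8 at a threshold of 0.01 and 8 to 14 without 1 array. With c-Jun siRNA the falls numbered 4 with arrays centred, 5 at 0.01, 3 with the position column as a fixed block, 6 with arrays 1 and 3 averaged and 7 to 11 without 1 array. The number of rises with c-Jun siRNA under vehicle was 6 at 0.01, 6 with the fixed block and 6 to 15 without 1 array, and under TNFα 6 at 0.01 and 7 to 15. Interaction calls were 3 without the dimmest 30% of genes, 3 with array weights and 1 to 2 without 1 array. The MRPL minus MRPS median was -0.007 for TNFα with control siRNA after quantile normalisation and -0.027 to 0.019 without 1 array. With c-Jun siRNA it was 0.009 after quantile normalisation, 0.007 with the fixed block and -0.022 to 0.005. For c-Jun siRNA under vehicle it was -0.02 with the fixed block and -0.051 to -0.022, and under TNFα -0.053 with the block, -0.054 with arrays averaged and -0.073 to -0.03. For the interaction it was -0.019 with arrays averaged and -0.044 to -0.019 without 1 array. The cause was not tested, except that a stricter threshold calls fewer genes by construction. With the replicate number as a block, 7 members rose and 14 fell for TNFα with control siRNA, 4 and 9 with c-Jun siRNA, 14 and 3 for c-Jun siRNA under vehicle and 14 and 6 under TNFα. Of 2340 counts over the gene lists 258 moved by over 1.5 times.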
